A study of Mus musculus with 10 samples.

Results

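The 8 genes Mcpt8, Prss34, Cpa3, Ms4a2, Fcer1a, Hdc, Il1rl1 and Cd200r3 encode proteases, IgE receptor subunits, the histamine-forming enzyme and surface receptors of basophils and mast cells. They were chosen by symbol from the 25178 genes of the count table, and all 8 were found and passed the filter on low counts. Marrow came from 5 female and 5 male mice of the inbred strain C57/BL6, unperturbed, and was depleted of mature lineages. Both sexes were handled alike, with marrow flushed from 1 hindlimb, cells bearing lineage markers removed on magnetic beads, and total RNA sequenced in bulk from 1 library per mouse. No treatment or genetic change is given for either sex. Neither the age of the mice nor the depletion antibodies are stated in the labels, so whether the beads also removed mature basophils is unknown.

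Basophils and mast cells are rare granulocytes that arm themselves with IgE bound to a high-affinity receptor and release granules of histamine and proteases when antigen crosslinks it. Both arise in the marrow from progenitors that share GATA transcription factors. Basophils finish maturing there, while mast cells leave as progenitors and mature in tissues. Mcpt8 and Prss34 are proteases known in mice as basophil products, and Cpa3 is a carboxypeptidase of mast cell granules that basophils and early progenitors also carry. In a bulk library, fewer cells of a type and less RNA per cell cannot be told apart.

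Libraries held between 20754101 and 24759687 counts, and single members had between 205 and 26710 counts in a library, so counting error was small beside the spread between mice. Levels are given as CPM, counts per 1000000 counts of the library after TMM scaling. An earlier analysis of these data had set male replicates 1 and 2 apart. Log2 fold changes of members and named genes that move by over 1.5 times without them are given both ways. The medians of the marker lists and related gene lists are given with all 10 libraries only. Male replicates 1 and 2 held the highest summed levels of 12 mature neutrophil markers (9356 and 2888 CPM, against 228 to 1464 CPM in the other males and 284 to 1052 CPM in females). They were also the highest in 10 erythroid markers (40429 and 26193 CPM) and in 7 monocyte and macrophage markers (554 and 303 CPM). The stem and progenitor markers Kit and Cd34 were present in every library. Kit, the stem cell factor receptor, averaged 280 ± 43.3 CPM among females and 249 ± 59.4 CPM among males, and Cd34 averaged 101 ± 17.8 CPM among females and 112 ± 19.9 CPM among males (SD, n = 5 each).

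The promoters of the members are shown because GATA factors are known to drive several of these genes. A relation between the members and the levels of GATA factors across mice was not tested. Sequences are from RefSeq, build GRCm38.p6. Each line holds the 250 bases before an annotated start site, read 5′ to 3′ on the gene's strand, with GATA words in capitals. Searched on both strands were the word AGATAA, the word TGATAA, and each with its last letter changed to G.
Prss34, chr17:25298144-25298393, plus strand: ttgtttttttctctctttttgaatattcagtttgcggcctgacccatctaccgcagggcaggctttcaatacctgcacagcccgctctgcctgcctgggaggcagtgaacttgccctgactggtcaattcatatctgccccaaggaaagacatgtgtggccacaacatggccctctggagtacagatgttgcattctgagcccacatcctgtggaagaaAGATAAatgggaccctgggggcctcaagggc
Mcpt8, chr14:56085198-56085447, minus strand: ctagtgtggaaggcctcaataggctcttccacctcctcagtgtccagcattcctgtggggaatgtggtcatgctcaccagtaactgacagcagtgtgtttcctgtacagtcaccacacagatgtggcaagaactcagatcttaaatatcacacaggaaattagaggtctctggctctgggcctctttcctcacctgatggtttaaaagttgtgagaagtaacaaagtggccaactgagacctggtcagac
Cpa3, chr3:20242182-20242431, minus strand: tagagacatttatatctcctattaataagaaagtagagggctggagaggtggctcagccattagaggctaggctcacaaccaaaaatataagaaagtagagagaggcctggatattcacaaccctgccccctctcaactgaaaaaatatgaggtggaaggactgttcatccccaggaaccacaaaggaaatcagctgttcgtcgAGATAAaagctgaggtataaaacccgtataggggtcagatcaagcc
Ms4a2, chr19:11623720-11623969, minus strand: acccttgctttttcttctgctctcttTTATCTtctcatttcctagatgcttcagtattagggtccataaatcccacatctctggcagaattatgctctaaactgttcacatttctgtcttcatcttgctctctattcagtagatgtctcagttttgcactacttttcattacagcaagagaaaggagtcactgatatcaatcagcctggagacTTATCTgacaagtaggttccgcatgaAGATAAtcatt
Il1rl1, chr1:40429320-40429569, plus strand: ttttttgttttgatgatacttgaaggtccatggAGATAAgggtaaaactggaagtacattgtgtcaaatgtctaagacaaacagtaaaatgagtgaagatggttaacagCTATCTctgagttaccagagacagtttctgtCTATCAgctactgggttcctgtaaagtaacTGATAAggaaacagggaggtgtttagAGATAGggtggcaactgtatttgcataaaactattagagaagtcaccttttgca

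Of the 8 members 7 had at least 1 GATA word in such a window, and the exception was Mcpt8. The start site used for Mcpt8 (56085197) lies inside the gene coordinates given further on, which end at 56085273. Part of its window therefore lies within those coordinates. The start site of Hdc (126618678) also lies inside its coordinates, which end at 126619299. Windows before those ends were not searched. Of all 32851 promoter windows of the table, 26.5% held one. A word lay 31 bases before the start of Prss34, 46 before that of Cpa3, and 11, 37 and 224 before that of Ms4a2. The upstream start of Il1rl1 had 5 words, and its downstream start, also in the table, had 1. Fcer1a had 1 word, Hdc 1 and Cd200r3 3. The words are matches of letters, and their use in these cells was not measured.

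Per transcript length, the proteases Prss34 and Mcpt8 stood far above the other members. Prss34 averaged 1627 TPM over the 10 libraries, the rank 86 of all genes in the table, and Mcpt8 averaged 683 TPM (rank 203). Cpa3 followed at 123 TPM, then Fcer1a at 38.2, Ms4a2 at 32.8, Hdc at 20.6, Il1rl1 at 20.1 and Cd200r3 at 5.33 TPM. Prss34 and Mcpt8 together gave 75.4% to 81.5% of the counts of the 8 genes in females and 80.6% to 85.8% in males. The neighbours Fcer1a and Ms4a2, and Hdc and Il1rl1, were within the spread over mice of each other on this scale. TPM is the count per exon length, scaled so that each library sums to 1000000.

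The proteases of mature tissue mast cells were close to undetected, unlike Mcpt8, Prss34 and Cpa3. Of 9 genes of this list 7 had a row, and 0 of them passed the filter. The chymase gene Cma1 had 54 counts in all 5 females together and 19 in the 5 males. The mucosal protease gene Mcpt2 had 5 counts in females and 27 in males, and the tryptase gene Tpsb2 had 13 in females and 2 in males. Mcpt1, Mcpt4, Tpsab1 and Tpsg1 had between 0 and 6 counts in females and between 2 and 3 in males. Mcpt8 had 26977 counts in females and 41555 in males. Mcpt9 and Cma2 were not analysed here. Mcpt8 lies in a cluster of related proteases, and reads shared with close relatives cannot be told apart in the counts.

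In the comparison of the sexes, 0 of the 8 members passed the edgeR test after adjustment over all 14674 genes, against 0.0545% of all genes (8 genes) in either direction and 0.0341% lower in females. DESeq2 (0.361% of its genes called) and limma called 0 members as well. At an unadjusted p under 0.05, Mcpt8, Prss34 and Cpa3 passed, 3 of 8 members and all lower in females, against 9.17% of all genes in either direction and 5.41% lower in females. Of the 8 members 7 had a negative log2 fold change, female over male, against 52% of all genes. The median was -0.36 for the members and -0.01 for all genes tested. All members except Il1rl1 varied together over these mice, as given further on, so these counts are not of independent genes. Negative values were also held by 7 of 7 monocyte and macrophage, 6 of 6 primary granule and 7 of 8 eosinophil markers. They were held by 6 of 13 IgE receptor signalling genes and 0 of 9 megakaryocyte markers. Without male replicates 1 and 2, 0 of 8 members passed at an unadjusted p under 0.05 and their median was -0.22. The sexes overlapped in all 8 members, so 0 of 8 were free of overlap (1.93% of all genes in either direction, and 0.865% with every female below every male).

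**Figure D1:**
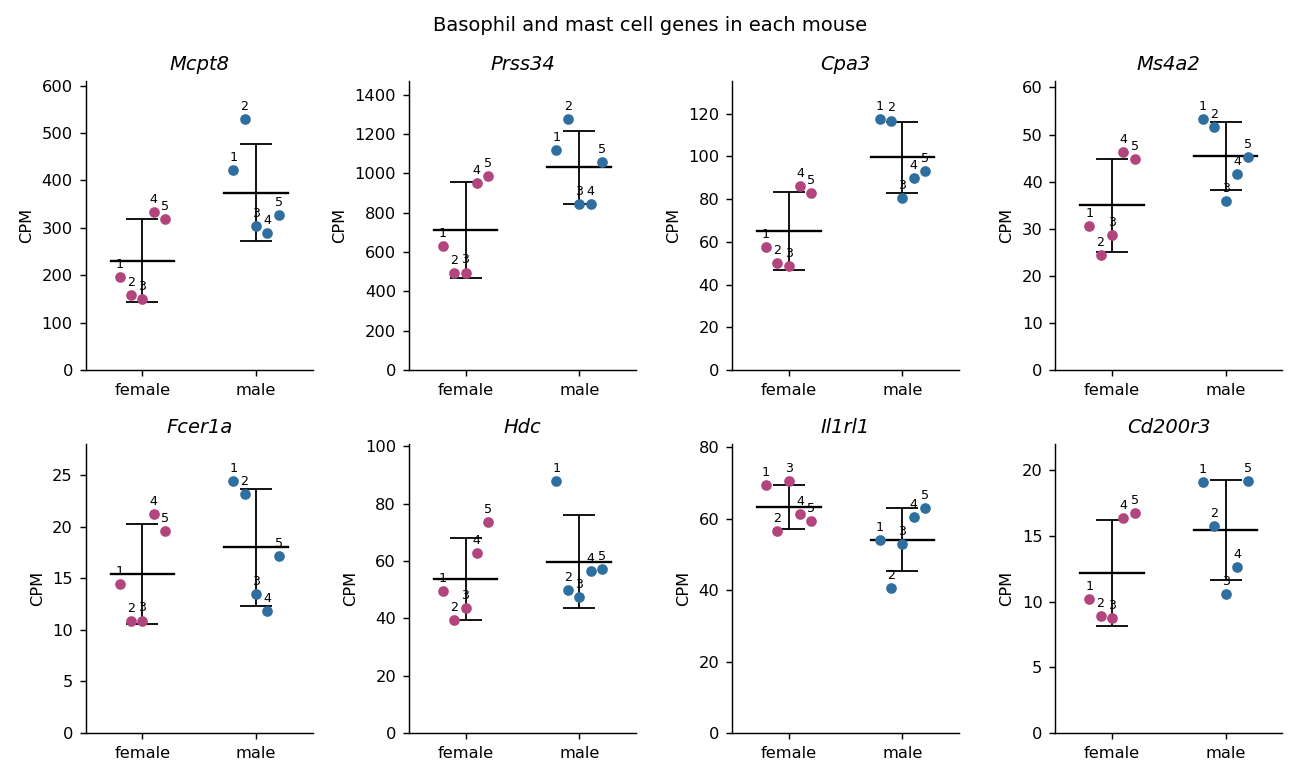
Level of each gene in each mouse in CPM on a linear axis, females left and males right, with the replicate number beside each point, the mean as a line and the SD as a bar (n = 5 each). Female replicates 1 to 3 are the lowest females for Mcpt8, Prss34, Cpa3, Ms4a2, Fcer1a, Hdc and Cd200r3, while Il1rl1 has no such gap.

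Among the proteases, Mcpt8 (chromosome 14: 56082166 to 56085273, minus strand) had 196, 158, 150, 334 and 318 CPM in female replicates 1 to 5. The males had 423, 530, 304, 288 and 327 CPM in the same order. Female replicates 1 to 3 lay below every male, while female replicates 4 and 5 lay among the males. The means were 231 ± 88.2 CPM among females and 374 ± 101 CPM among males (SD, n = 5 each), a log2 fold change of -0.70 (SE 0.25, edgeR adjusted p = 0.506). Without male replicates 1 and 2 the log2 fold change was -0.41 (adjusted p = 0.998).

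Prss34, a serine protease also called mast cell protease 11 (chromosome 17: 25298394 to 25300165, plus strand), was at 631, 494, 496, 950 and 988 CPM in female replicates 1 to 5. It was at 1121, 1277, 846, 845 and 1060 CPM in male replicates 1 to 5. The same 3 females were below every male, and the other two overlapped with male replicates 3 and 4. The means of 712 ± 242 CPM among females and 1029.97 ± 186 CPM among males gave a log2 fold change of -0.53 (SE 0.21, edgeR adjusted p = 0.506). Without male replicates 1 and 2 it was -0.37.

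Cpa3, the granule carboxypeptidase (chromosome 3: 20215620 to 20242181, minus strand), had the smallest p of the members. It had 57.7, 50.1, 48.5, 86.2 and 82.8 CPM among females and 118, 117, 80.7, 89.7 and 93.3 CPM among males, both in replicate order. In CPM, every female lay below the male median, 3 lay below every male, and 4 of 5 males lay above every female. In TPM, female replicates 4 and 5 (142 and 141 TPM) lay above male replicates 2 and 3 (129 and 122 TPM). The log2 fold change was -0.61 (SE 0.18, edgeR adjusted p = 0.506), with means of 65.1 ± 18.1 CPM among females and 99.6 ± 16.7 CPM among males. It was -0.44 without male replicates 1 and 2. The sexes lay closer on the TPM scale for all 3 proteases. Mcpt8 averaged 580 ± 230 TPM among females and 786 ± 87.4 TPM among males. Prss34 averaged 1461 ± 522 TPM among females and 1794 ± 202 TPM among males. Cpa3 averaged 107 ± 31.6 TPM among females and 140 ± 13.9 TPM among males.

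The ratios between the proteases varied less across mice than their levels did. Per length, Prss34 was 2.55 ± 0.142 times Mcpt8 in females and 2.29 ± 0.253 times in males (SD, n = 5 each). Across the 10 mice this ratio varied 1.37-fold, against 2.07-fold for Prss34 and 2.35-fold for Mcpt8 on the TPM scale. The ratio of Cpa3 to Mcpt8 varied 1.47-fold, with 0.191 ± 0.0200 in females and 0.179 ± 0.0220 in males. That of Il1rl1 to Mcpt8 varied 6.12-fold, more than either gene alone.

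The IgE receptor is built of an alpha chain that binds IgE (Fcer1a), a beta chain that amplifies the signal (Ms4a2) and gamma chains (Fcer1g) that other myeloid cells share. Ms4a2 (chromosome 19: 11615523 to 11623719, minus strand) had 30.7, 24.5, 28.6, 46.2 and 44.9 CPM in female replicates 1 to 5 and 53.4, 51.6, 35.9, 41.6 and 45.2 CPM in male replicates 1 to 5. Again 3 females lay below every male, and female replicate 4 lay above 3 males. The log2 fold change was -0.38 (SE 0.18, edgeR adjusted p = 0.506), and -0.23 without male replicates 1 and 2. Fcer1a (chromosome 1: 173221284 to 173227214, minus strand) had 14.4, 10.8, 10.9, 21.3 and 19.6 CPM among females and 24.4, 23.2, 13.4, 11.8 and 17.1 CPM among males. Its sexes overlapped more widely, with 2 females below every male (log2 fold change -0.22, SE 0.25, edgeR adjusted p = 0.654). The value was 0.12 without male replicates 1 and 2. On the TPM scale, with all 10 libraries, Fcer1a averaged 38.5 ± 12.6 TPM among females and 37.8 ± 8.29 TPM among males, so its direction also turned with the scaling.

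The gamma chain gene Fcer1g had 29.9, 27.0, 33.7, 41.7 and 41.5 CPM among females and 94.1, 69.4, 43.2, 38.1 and 35.3 CPM among males. The 2 highest values were those of male replicates 1 and 2, which also held the highest mature neutrophil markers, and the part of those cells in the result was not tested. The log2 fold change was -0.69 (SE 0.26, edgeR adjusted p = 0.506), and -0.16 without those libraries. Of 13 genes of IgE receptor signalling tested, 0 were called higher or lower, 7 had positive and 6 negative values, and the median log2 fold change was 0.03. The adaptor Lat2 had a value of -0.34, the inositol phosphatase Inpp5d of 0.23 and the kinase Fyn of 0.16. Without male replicates 1 and 2, Inpp5d was at 0.036 and Fyn at 0.052.

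Hdc, histidine decarboxylase, makes histamine from histidine (chromosome 2: 126593667 to 126619299, minus strand). Its levels were 49.4, 39.4, 43.6, 62.9 and 73.7 CPM in female replicates 1 to 5 and 87.8, 50.01, 47.3, 56.5 and 57.1 CPM in male replicates 1 to 5. Male replicate 1 was the highest library and the other 9 mice overlapped by sex, with female replicate 5 next. The log2 fold change was -0.15 (SE 0.20, edgeR adjusted p = 0.705), with 0.024 once male replicate 1 was left out and 0.0030 once male replicates 1 and 2 were. Its direction turned on the TPM scale too, with 21.1 ± 6.01 TPM among females and 20.1 ± 5.42 TPM among males. Of 4 tested genes of histamine handling 0 were called, and the median was -0.22. The amine loader Slc18a2 was at 13.5 ± 1.93 CPM among females and 13.4 ± 2.45 CPM among males. The histamine-degrading enzyme gene Hnmt was at 1.97 ± 0.257 CPM among females and 3.004 ± 1.24 CPM among males (SD, n = 5 each), with a log2 fold change of -0.60, and of -0.17 without male replicates 1 and 2.

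Il1rl1, the receptor for the alarm cytokine IL-33 (chromosome 1: 40429570 to 40465415, plus strand), was the member with a positive value. It had 69.4, 56.6, 70.5, 61.2 and 59.3 CPM among females and 53.9, 40.6, 52.8, 60.4 and 63.1 CPM among males, in replicate order. All 5 females lay above the male median, female replicates 1 and 3 lay above every male, and male replicate 2 was the lowest. The means were 63.4 ± 6.20 CPM among females and 54.2 ± 8.72 CPM among males, with a log2 fold change of 0.23 (SE 0.12, edgeR adjusted p = 0.506) and of 0.11 without male replicates 1 and 2. The gene makes a membrane and a soluble form from different transcripts, which gene counts do not tell apart. Of 5 tested genes of the IL-33 receptor pathway 0 were called, and the median was 0.015. The co-receptor gene Il1rap was at 12.3 ± 1.36 CPM among females and 11.8 ± 2.22 CPM among males, and the ligand gene Il33 had 3 counts in females and 3 in males.

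Il1rl1 also marks type 2 innate lymphoid cells. Of 7 markers of those cells 5 were tested and 0 were called, with summed levels of 7.31 to 13.3 CPM in females and 8.84 to 15.0 CPM in males. Areg, which those cells make, had 2 counts in females and 0 in males. Gata3, their defining factor, was at 1.61 ± 0.702 CPM among females and 1.89 ± 0.546 CPM among males (SD, n = 5 each).

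Cd200r3, an activating receptor of the CD200 receptor family on basophils and mast cells (chromosome 16: 44943678 to 44981380, plus strand), was the least abundant member. It had 10.2, 8.92, 8.76, 16.4 and 16.7 CPM among females and 19.1, 15.8, 10.5, 12.7 and 19.1 CPM among males. Female replicates 1 to 3 were below every male, and replicates 4 and 5 were above 3 males (log2 fold change -0.34, SE 0.23, edgeR adjusted p = 0.521). Without male replicates 1 and 2 the value was -0.21. Its paralogs were scarcer. Cd200r1 was at 3.32 ± 1.14 CPM among females and 3.52 ± 1.34 CPM among males, Cd200r4 at 0.631 ± 0.187 CPM among females and 0.787 ± 0.203 CPM among males, and Cd200r2 had 2 counts in each sex.

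**Figure D2:**
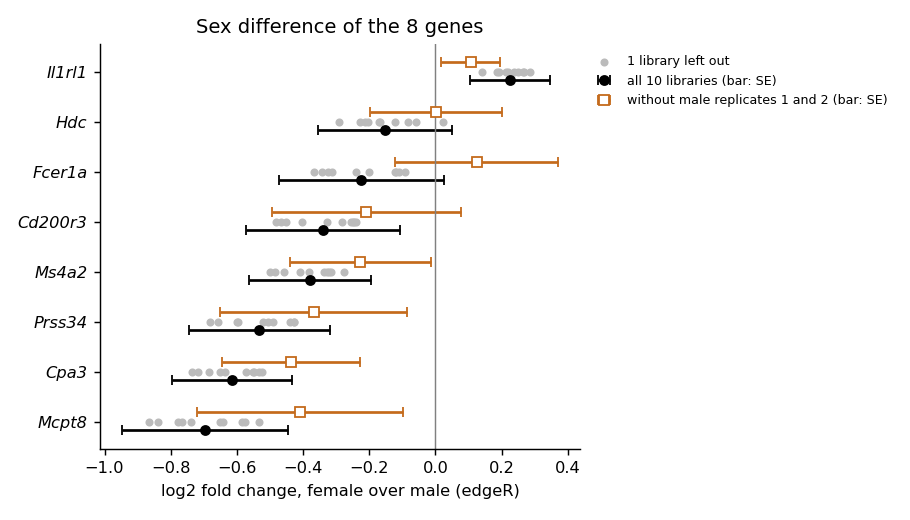
Log2 fold change, female over male, of the 8 genes from edgeR, with all 10 libraries (black, bar SE), with 1 library left out at a time (grey) and without male replicates 1 and 2 (orange squares, bar SE). The values of Mcpt8, Cpa3, Prss34, Ms4a2 and Cd200r3 stay below 0 in these fits, Il1rl1 stays above 0, and Hdc and Fcer1a cross 0.

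The 8 genes held 0.122% ± 0.0409 of the library among females and 0.164% ± 0.0221 among males (SD, n = 5 each). The shares in female replicates 1 to 5 were 0.105%, 0.0859%, 0.0880%, 0.165% and 0.168%, and those in male replicates 1 to 5 were 0.183%, 0.186%, 0.139%, 0.142% and 0.170%. Female replicates 1 to 3 were the lowest of the 10 mice, and female replicates 4 and 5 lay within the male range. This order was not tested as particular to the 8 genes, and other lists shared it. Summed levels were lower in female replicates 1 to 3 than in female replicates 4 and 5 in 9 of 18 other lists, and the lowest of all 10 mice in 4 of them. Monocyte and macrophage markers, for example, summed to 167, 128, 155, 222 and 242 CPM in female replicates 1 to 5, and Cd34 had 86.4, 82.0, 99.0, 122 and 117 CPM. For the basophil proteases the females were the more spread sex. The SD of log2 CPM of Mcpt8 was 0.55 in females, above that of 93.0% of all genes tested, and 0.37 in males, above that of 59.8%. For Prss34 it was 0.49 in females (90.7%) and 0.26 in males (39.4%). For Il1rl1 it was 0.14 in females (44.1%) and 0.25 in males (36.4%). The difference in spread between the sexes was not tested.

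Across the 10 mice, all members except Il1rl1 varied together. The Pearson r of log2 CPM was between 0.63 and 0.98 for the 21 pairs of the other 7 genes, and the Spearman rho between 0.72 and 0.96. Of these pairs 20 passed by r and 21 by rho at an adjusted p under 0.05 (permutation over mice, 100000 resamples, adjusted over all 28 pairs). With the sex means removed, r ran from 0.65 to 0.97 and 19 pairs passed an exact permutation within sex. The 7 genes share libraries and scaling factors. The share of passing pairs among all genes was not computed, so how unusual these counts are is not known. The 3 low females carry part of this relation. Without the 2 mice farthest from the median of the first gene, r ran from 0.30 to 0.96, and without female replicates 1 to 3, an alternative chosen after seeing the data, from 0.08 to 0.92. Over those 7 mice 1 of the 28 pairs passed.

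Prss34 and Mcpt8 were the closest pair (r = 0.98, permutation p = 2e-05, adjusted p = 1.87e-04; rho = 0.95, permutation p = 1.2e-04, adjusted p = 0.00168). Their r was 0.96 without the 2 farthest mice, 0.97 with the sex means removed and 0.92 without female replicates 1 to 3. Hdc was the least close of the 7, with an r of 0.63 to Mcpt8 (permutation p = 0.0515, adjusted p = 0.0627), where rho was 0.72 (permutation p = 0.0235, adjusted p = 0.0313). That pair had an r of 0.30 without the 2 farthest mice and of 0.08 without female replicates 1 to 3.

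Il1rl1 did not follow the others. Its r to the other 7 members was between -0.71 and -0.07. The value of -0.71 to Mcpt8 passed (permutation p = 0.0177, adjusted p = 0.0261), and its rho of -0.54 did not (permutation p = 0.114, adjusted p = 0.145). With the sex means removed the r to Mcpt8 was -0.55 (exact permutation p = 0.0858, adjusted p = 0.109), and without the 2 farthest mice it was -0.86. The relation with Mcpt8 did not pass within the sexes at this number of mice.

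**Figure D3:**
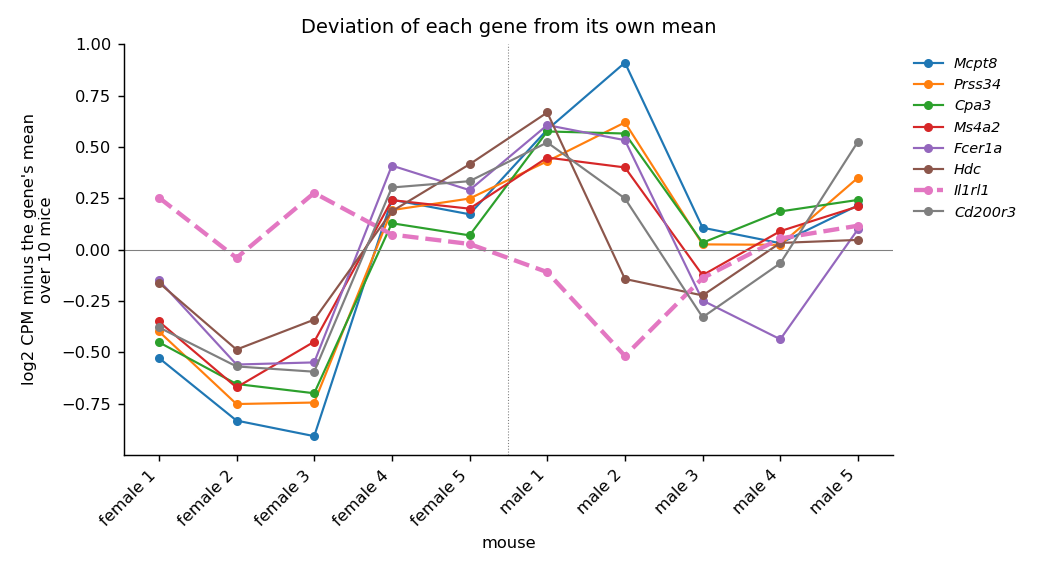
Log2 CPM of each gene in each mouse minus that gene's mean over the 10 mice, with females left and males right of the dotted line. Lines only join the points of a gene, and the dashed line is Il1rl1. The other 7 genes are below their means in female replicates 1 to 3 and above them in male replicate 1, while Il1rl1 is lowest in male replicate 2.

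**Figure D4:**
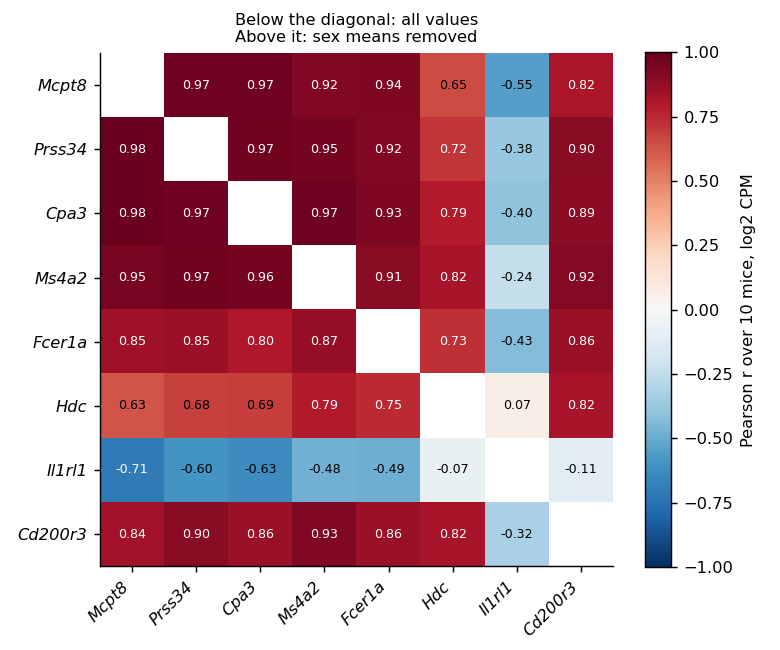
Pearson r of log2 CPM over the 10 mice for each pair of genes, from all values below the diagonal and with the sex means removed above it. The 21 pairs without Il1rl1 lie between 0.63 and 0.98 below the diagonal and between 0.65 and 0.97 above it.

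Among 9443 other genes with a mean of at least 5 CPM, those most like each member were taken by Pearson r over the 10 libraries with the sex means removed. These values were picked as the highest and are a description. Rcn1, a calcium-binding protein of the endoplasmic reticulum, was closest to Mcpt8 (r = 0.97) and to Prss34 (0.96), and Mboat1, a lysophospholipid acyltransferase, was closest to Cpa3 (0.98). Renbp was closest to Ms4a2 (0.93) and to Fcer1a (0.97). A high r here does not mean a change of like size or a like sex difference. Rcn1 was at 43.0 ± 3.15 CPM among females and 41.4 ± 1.89 CPM among males, with a log2 fold change of 0.056. The log2 fold change of Mboat1 was -0.22 and that of Renbp 5.2e-05. Cyp11a1, the enzyme that opens steroid synthesis, was closest to Cd200r3 (0.98). It is known from mouse basophils and mast cells and had 9.51, 8.51, 8.29, 14.9 and 16.6 CPM among females and 17.1, 15.0, 11.7, 12.8 and 17.97 CPM among males. Its lowest mice were the same 3 females (log2 fold change -0.36, SE 0.22, edgeR adjusted p = 0.507). Cyp11a1 was picked here for its likeness to Cd200r3, so this order is no separate result.

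None of the 3 genes closest to Hdc was among the closest of another member, and the same held for Cd200r3. The gene closest to Hdc was Cx3cr1, the fractalkine receptor of monocytes (r = 0.99). Next came the integrin gene Itgb7 (0.96), which mast cell progenitors of mice need to enter the intestine, and Myo1g (0.96). The genes closest to Il1rl1 were Mapk1ip1l, Tmem231 and Zfp239 (r = 0.96 each), and none of the 3 was among the closest of another member.

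Of 14 fate factors tested 0 were called, with 6 positive and 8 negative values and a median of -0.02. Gata2, needed for basophil and mast cell progenitors and named here after its values were seen, was at 121 ± 26.3 CPM among females and 119 ± 16.4 CPM among males. Gata1, likewise named after its values were seen, was at 260 ± 17.7 CPM among females and 262 ± 15.1 CPM among males (SD, n = 5 each). The smallest p of the list were those of Spi1, the myeloid factor PU.1 (log2 fold change -0.51, SE 0.22), Hes1 (-0.52, SE 0.23), Tal1 (0.21, SE 0.10) and Cebpb (-0.32, SE 0.16), each with an edgeR adjusted p of 0.506. Hes1 was scarce, with 14 to 33 counts in a library. Its means were 0.883 ± 0.246 CPM among females and 1.28 ± 0.140 CPM among males. Spi1 had 118 and 98.8 CPM in male replicates 1 and 2. The other males, at 57.8 to 66.6 CPM, lay within the female range of 42.6 to 76.5 CPM for Spi1. Without those libraries its log2 fold change was -0.12, and that of Tal1 was 0.10.

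Of 7 genes of growth factor receptors and their ligands tested 0 were called, and the median was -0.15. Crlf2, a subunit of the receptor for the cytokine that drives basophils independently of IL-3, was at 36.8 ± 4.97 CPM among females and 43.6 ± 3.39 CPM among males (log2 fold change -0.25, SE 0.11, edgeR adjusted p = 0.506). Il3ra, the IL-3 receptor alpha chain, was at 21.7 ± 3.89 CPM among females and 24.04 ± 1.61 CPM among males. Il3 was not analysed here.

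Of 12 other surface and granule genes tested 0 were called, with a median of -0.31. Its values lay in both directions. Cd63, a granule membrane protein that appears on the surface of activated basophils, was at 88.9 ± 20.6 CPM among females and 129 ± 40.9 CPM among males (log2 fold change -0.54, SE 0.21). The granule proteoglycan gene Srgn was at 284 ± 31.2 CPM among females and 359 ± 93.6 CPM among males (-0.34, SE 0.16). Both were highest in male replicates 1 and 2. Cd63 had 177 and 170.2 CPM there and 97.0 to 101 CPM in the other males, within the female range of 69.98 to 113 CPM. Without these libraries the log2 fold change of Cd63 was -0.16 and that of Srgn -0.04. Itga2, the integrin CD49b used to sort basophils, which megakaryocytes and platelets also carry, was at 14.4 ± 2.24 CPM among females and 10.002 ± 2.21 CPM among males (0.53, SE 0.17). Rab27b, a granule trafficking gene of mast cells and platelets, was at 47.9 ± 9.05 CPM among females and 36.2 ± 3.02 CPM among males (0.40, SE 0.13). Each had an edgeR adjusted p of 0.506. Of 9 megakaryocyte markers tested all 9 had positive values (median 0.45, 0 called), and their part in the values of Itga2 and Rab27b was not tested.

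Of 4 lipid mediator genes tested 0 were called (median -0.02). Alox5ap, which presents arachidonic acid for leukotriene synthesis, was at 43.9 ± 8.96 CPM among females and 61.1 ± 20.3 CPM among males, and Ptgs1, a cyclooxygenase, at 23.6 ± 3.14 CPM among females and 19.6 ± 3.41 CPM among males. Without male replicates 1 and 2 the log2 fold change of Alox5ap was -0.15, against -0.48 with them.

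**Figure D5:**
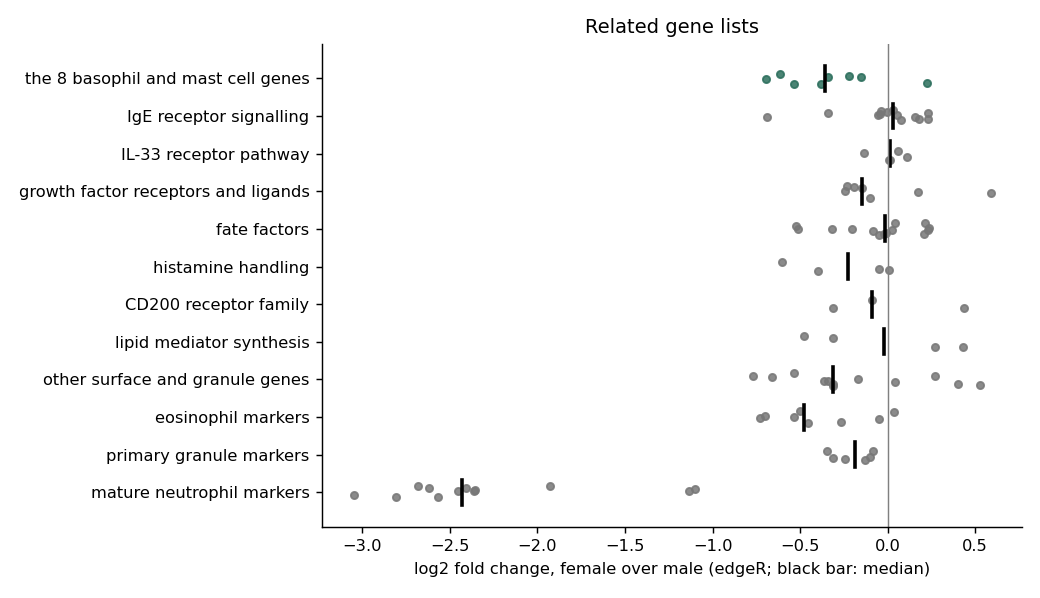
Log2 fold change, female over male, of each tested gene of the 8 basophil and mast cell genes (green) and of related lists (grey), with the median as a black bar. The 8 genes have a median of -0.36, IgE receptor signalling of 0.03, fate factors of -0.02, eosinophil markers of -0.48 and mature neutrophil markers of -2.43.

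The 8 eosinophil markers summed to 821, 640, 600, 1388 and 503 CPM among females and 2236, 1360, 570, 853 and 322 CPM among males, all 8 tested and 0 called (median log2 fold change -0.48). The sum was highest in male replicate 1, and the median without male replicates 1 and 2 was not computed. Female replicate 5 and male replicate 5 were their lowest mice, whereas both were in the upper range for Prss34. The 6 primary granule markers of neutrophil progenitors summed to 3504, 2586, 3144, 3598 and 4317 CPM in female replicates 1 to 5 and 4625, 4233, 3355, 3516 and 3480 CPM in male replicates 1 to 5, with 0 called and a median of -0.19. Their females stood in the same order as for the sum of the 8 genes, and female replicates 2 and 3 were the lowest of the 10 mice in both. The 12 mature neutrophil markers had negative values throughout (median -2.43, 0 called), and their median without male replicates 1 and 2 was not computed either. Male replicates 1 and 2 had the highest sums of the neutrophil markers (9356 and 2888 CPM) and, in CPM, the highest Prss34 (1121 and 1277 CPM). Male replicate 5 had the lowest sum (228 CPM) and the next level of Prss34 (1060 CPM). This order of Prss34 turned with the scaling. In TPM, male replicate 5 (2115 TPM) and female replicate 5 (2100 TPM) lay above male replicates 1 and 2 (1839 and 1753 TPM). The part of mature granulocytes in the sex differences of the members was not tested.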

How the data were processed

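Bulk RNA from lineage-depleted marrow of 10 mice, 5 per sex, was analysed. The authors deposited raw read counts per Ensembl gene, and normalized values (signal) in which each count is divided by 1 size factor per library. Per the submitters' processing notes, STAR, featureCounts and DESeq were used with builds GRCm38.p6 and mm10. Their versions and the strand setting are not stated. Of 25178 genes, 25116 matched GENCODE vM21 (GRCm38) by identifier, which gave coordinates and exon lengths for TPM.

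Counts were filtered (filterByExpr, 14674 genes), TMM-scaled and tested in edgeR 4.0.16 (R 4.3.3; quasi-likelihood, sex as the only term, log2 fold change female over male). P-values were adjusted by Benjamini-Hochberg over all genes tested, with 0.05 as threshold. The SE is the log2 fold change divided by the root of F. Log2 CPM used a prior count of 2. Alternatives were DESeq2 1.42.0, limma 3.58.1 (voom with quality weights), other scalings and filters, a replicate block and libraries left out. The procedure was tested on simulated data with planted changes larger than those of the members. That test does not tell how often changes of the members' size would be called.

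The members and lists were chosen with earlier results of these data known. The genes named are the 8 members, any called gene of each other list, and genes from among the 4 of smallest p in that list. Genes from among the 3 most like each member were also named. Not all genes that met these rules are named. Predicted genes were left out of the last. Kit and Cd34 as library checks, Gata1, Gata2, and genes below the filter were named after their values were seen. Lists of B, T and natural killer cells were also computed.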

Additional observations from a re-analysis of the deposited data

Results flagged for a closer look

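In groups of 5 mice, a library was looked at again where its gap to the nearest other library took up an unusually large part of the group's range, which chance gives in about 1 of 20 groups. Of 16 groups of members, 1 stood out. Hdc in males had its highest value in male replicate 1 (87.8 CPM, against 47.3 to 57.1 CPM in the other males), with a gap of 0.759 of the range. Without that library its log2 fold change, female over male, was 0.024.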

How the results depend on the processing

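Among 18 alternatives for each member, 0 members were called under any, and 141 of the 144 values kept the direction and side of the threshold. The exceptions were Hdc and Fcer1a, at 0.0030 and 0.12 once male replicates 1 and 2 were left out, and Hdc at 0.024 once only male replicate 1 was. With 1 library left out, Hdc ran from -0.29 to 0.024. The value of Mcpt8 ran from -0.86 (without female replicate 4) to -0.41 (without male replicates 1 and 2), that of Cpa3 from -0.74 to -0.44 and that of Prss34 from -0.68 to -0.37. Of 20 named genes of other lists, refitted without male replicates 1 and 2 after seeing the data, 0 were called. The smallest adjusted p of any member was 0.147, for Cpa3 in DESeq2. The number of all genes called was 8, but 53 in DESeq2 and 22 in limma, and the cause was not tested. With the replicate block it was 5. The deviations of same-numbered mice correlated between -0.30 and -0.01, so the numbers were not taken to pair the mice. Leaving out 1 library gave 6 to 10 called genes, 0 called members and 17 to 23 passing pairs of members. Pairs passing were 21 of 28, and 1 without female replicates 1 to 3, an alternative added after seeing the data, where 7 mice remain. B lineage markers (6 tested, median -1.55) and T and natural killer markers (5 tested, median -0.36) had 0 called genes.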
